A study of Mus musculus with 9 samples.

Results

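Interferon response and antigen presentation genes were followed as a set of 36 genes out of the 32594 in the count table. Of these, 34 were listed by what they do, with earlier results of these data known. They form 5 arms: 14 interferon-stimulated effectors, 4 transcription factors, 3 cytosolic RNA sensors, 7 interferon-inducible GTPases and 6 genes of class I presentation. The other 2, Gm4841 and F830016B08Rik, were added because their levels were far apart between the groups, so their values are given below as a description with no test. All 36 symbols were found in the table.

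The data are poly(A)-selected, stranded RNA sequencing of hindlimb skeletal muscle from FVB/N mice. The 4 SMA libraries came from mice labelled SMN delta 7, a model of spinal muscular atrophy, and the 5 wild-type (WT) libraries from mice of the same strain. In this model, as background, the mouse Smn1 gene is inactive and human SMN2 and SMN delta 7 transgenes are carried, but the labels give no alleles for these animals, nor their age, treatment or litter, nor whether the WT mice carry a transgene. The labels do not say that libraries of 1 group came from separate animals, so the p-values measure the spread between these libraries, which may be technical.

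Total counts ran from 30746646 to 35087722 in SMA libraries and from 24917665 to 34094645 in WT libraries. Smn1, the targeted gene, averaged 2.04 ± 0.570 counts-per-million (CPM, of library sizes scaled by edgeR's TMM method) in SMA muscle and 13.0 ± 1.04 CPM in WT muscle (SD, n = 4 and 5). Markers of muscle fibres were abundant in every library, with 10 genes summing to 84170 ± 6769 CPM in SMA muscle and 160900 ± 22650 CPM in WT muscle. By Xist and Y-linked counts, 3 of 4 SMA libraries and 1 of 5 WT libraries were female, so sex moved with genotype and no comparison within a sex had 2 libraries in each group; its part in the results was not tested beyond a fit with sex as a term. On the second principal component, which carried 9.92% of the variance, SMA 3 scored -43.4 and the other SMA libraries 14.6 to 15.4.

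Interferons are secreted proteins that act through paired receptors and Janus kinases. Type I interferons act on genes with an interferon-stimulated response element, whereas interferon gamma acts on genes with a gamma-activated site. Among the genes they turn on are antiviral effectors, GTPases that act on vacuoles holding pathogens, and the class I pathway, which loads peptides onto surface molecules seen by CD8+ T cells. Resting muscle fibres are known for low class I levels, which rise in inflamed muscle.

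Proximal promoters from RefSeq (build GRCm38.p6, 250 bases before to 50 bases after the start) were matched for 26 of the 36 genes. In all, 3 motifs were searched on both strands: GAAA, any 2 bases and again GAAA for the interferon-stimulated response element, TTCNNNGAA for the gamma-activated site, and for the kappa B site of class I promoters the letters in capitals in H2-K1 below. The first was present in 16 of the 26 genes (61.5%), against 3.99% of 27025 genes with a promoter in the same table. The gamma-activated site letters were in 7 of 26 genes (26.9%), against 9.55% of all genes. The kappa B letters were in H2-K1 and H2-D1, or 7.69% of the 26, against 0.0333% of all genes. These letters are those of H2-K1 itself, so its match was given in advance and the contrast is no finding. A match is a description of the letters in this window and was not tied to binding.

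Promoters of up to 2 genes per arm are printed, at most 8 in all, those with the highest level per kilobase that hold a motif, together with Isg15 and H2-K1, which were chosen after their values were seen. Each runs 5′ to 3′ on the gene's strand, with the motif letters in capitals. The effectors shown are Bst2 (chr8:71537423-71537722, minus strand), whose gamma-activated site letters overlap the first of 2 overlapping response elements, Ifi35 (chr11:101448162-101448461, plus strand) and Isg15 (chr4:156200769-156201068, minus strand), with 3 overlapping response elements.
Bst2: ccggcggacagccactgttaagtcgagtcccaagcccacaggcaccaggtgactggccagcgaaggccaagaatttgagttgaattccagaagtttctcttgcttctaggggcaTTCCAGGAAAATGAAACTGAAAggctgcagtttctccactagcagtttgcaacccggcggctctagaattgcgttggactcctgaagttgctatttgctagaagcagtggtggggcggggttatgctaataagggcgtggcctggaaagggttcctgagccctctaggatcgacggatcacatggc
Ifi35: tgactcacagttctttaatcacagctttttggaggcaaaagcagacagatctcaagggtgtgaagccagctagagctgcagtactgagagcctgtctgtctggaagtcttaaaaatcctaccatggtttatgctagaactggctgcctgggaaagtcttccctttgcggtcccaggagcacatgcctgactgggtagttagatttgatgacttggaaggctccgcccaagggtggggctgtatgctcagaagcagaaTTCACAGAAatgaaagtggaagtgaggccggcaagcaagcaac
Isg15: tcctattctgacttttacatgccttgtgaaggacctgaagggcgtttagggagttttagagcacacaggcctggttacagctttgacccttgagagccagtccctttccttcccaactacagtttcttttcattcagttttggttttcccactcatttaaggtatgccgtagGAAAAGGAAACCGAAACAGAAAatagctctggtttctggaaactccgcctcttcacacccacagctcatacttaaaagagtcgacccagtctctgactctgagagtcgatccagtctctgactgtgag
The factors are Irf1 (chr11:53769764-53770063, plus strand), with a gamma-activated site, and Stat2 (chr10:128270248-128270547, plus strand), with a response element read on the opposite strand. The sensors are Ddx58 (chr4:40239776-40240075, minus strand) and Ifih1 (chr2:62646206-62646505, minus strand), whose matches lie just after the start, at +3 and +33, counting the first transcribed base as +1.
Irf1: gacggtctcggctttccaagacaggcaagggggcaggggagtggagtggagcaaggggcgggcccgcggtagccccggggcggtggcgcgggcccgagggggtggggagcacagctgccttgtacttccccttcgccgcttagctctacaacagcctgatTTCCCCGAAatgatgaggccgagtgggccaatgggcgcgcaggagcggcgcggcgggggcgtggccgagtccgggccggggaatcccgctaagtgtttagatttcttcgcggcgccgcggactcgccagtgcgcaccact
Stat2: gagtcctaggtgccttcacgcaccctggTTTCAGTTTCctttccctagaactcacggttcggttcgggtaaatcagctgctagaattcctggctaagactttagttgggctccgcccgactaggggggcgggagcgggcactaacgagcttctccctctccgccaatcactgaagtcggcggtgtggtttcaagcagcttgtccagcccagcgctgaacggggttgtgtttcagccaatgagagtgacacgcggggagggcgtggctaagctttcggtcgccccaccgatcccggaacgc
Ddx58: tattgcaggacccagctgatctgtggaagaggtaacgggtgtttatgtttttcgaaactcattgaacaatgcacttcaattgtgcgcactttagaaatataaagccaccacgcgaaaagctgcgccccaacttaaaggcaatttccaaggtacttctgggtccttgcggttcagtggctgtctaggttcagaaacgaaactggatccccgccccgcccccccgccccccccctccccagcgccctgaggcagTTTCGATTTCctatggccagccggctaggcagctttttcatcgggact
Ifih1: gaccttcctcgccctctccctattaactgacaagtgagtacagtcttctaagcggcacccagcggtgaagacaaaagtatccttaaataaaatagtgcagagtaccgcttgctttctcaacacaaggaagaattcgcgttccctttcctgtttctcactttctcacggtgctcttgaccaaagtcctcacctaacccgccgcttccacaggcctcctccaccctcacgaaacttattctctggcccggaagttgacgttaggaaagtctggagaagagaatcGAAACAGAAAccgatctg
The GTPases Igtp (chr11:58199306-58199605, plus strand) and Irgm2 (chr11:58214727-58215026, plus strand) are the arm's genes with the highest level per kilobase that hold a motif, and each holds a gamma-activated site with a response element 2 bases after it, at -45 and -34 in Igtp and at -75 and -64 in Irgm2. H2-K1 (chr17:34000298-34000597, minus strand) carries the kappa B site at -111.
Igtp: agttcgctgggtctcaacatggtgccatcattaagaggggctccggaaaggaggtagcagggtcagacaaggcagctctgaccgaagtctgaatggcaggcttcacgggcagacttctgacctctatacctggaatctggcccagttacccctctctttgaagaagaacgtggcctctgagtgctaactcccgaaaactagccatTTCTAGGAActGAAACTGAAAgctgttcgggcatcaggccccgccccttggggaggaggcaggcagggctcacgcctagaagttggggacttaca
Irgm2: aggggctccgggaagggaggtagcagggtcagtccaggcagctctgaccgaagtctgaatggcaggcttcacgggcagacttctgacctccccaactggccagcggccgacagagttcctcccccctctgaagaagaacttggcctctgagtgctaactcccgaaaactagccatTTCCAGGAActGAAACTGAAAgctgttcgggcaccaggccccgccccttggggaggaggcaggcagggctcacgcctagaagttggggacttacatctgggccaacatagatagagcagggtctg
H2-K1: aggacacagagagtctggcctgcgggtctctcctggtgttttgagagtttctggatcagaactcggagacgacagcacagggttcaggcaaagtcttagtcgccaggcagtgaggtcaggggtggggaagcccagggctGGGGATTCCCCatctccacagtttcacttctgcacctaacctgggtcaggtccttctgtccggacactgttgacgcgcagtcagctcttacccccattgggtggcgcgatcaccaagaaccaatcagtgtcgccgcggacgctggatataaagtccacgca

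Most of the set was lower in SMA muscle. Of the 36 genes, 33 passed the filter on low counts, and Ifit1, Oas1a and Mx1 did not. Isg15, Gm4841 and F830016B08Rik passed through the WT libraries alone, so they could be tested only if they were lower in SMA, and their values are given with no test. Of the other 30 genes, 21 fell, 2 rose (Xaf1 and Tap1) and 7 did not pass (quasi-likelihood test of edgeR, Benjamini-Hochberg adjusted over 15873 genes, threshold 0.05, here called the edgeR adjusted p). Across all tested genes 27.2% fell and 27.7% rose (54.9% either way). Among the 14884 that did not pass through 1 group alone, 27.5% fell and 26.9% rose, so 70% lower stood above the background share and 6.67% higher below it. The listed genes were chosen with earlier results of these data known, so contrasts with all genes here are descriptions, not independent support. The median log2 fold change was -0.61 over the 30 genes and 0.006 over all tested genes. In 13 of the 30 genes every SMA library lay below every WT library, as in 21.7% of all tested genes, and in Tap1 every SMA library lay above, as in 22.6%. In 7 of the 30 the fall was at least 1 on the log2 scale, against 6.28% of all genes.

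Scaling moved this split. With scaling by total counts alone, which shifted the median of all genes to 0.24, 9 of the 30 fell and 2 rose, against 13.6% lower and 40.2% higher over all genes. The 12 genes that no longer passed as lower were Mx2, Bst2, Parp14, Irf1, Irf7, Dhx58, Gbp2, Gbp3, Gbp7, Iigp1, Irgm1 and H2-D1, all still below 0. With sex as a term, 16 fell and 1 rose, against 21% lower and 22.4% higher over all genes. Markers of macrophages and monocytes moved the same way. Leaving out Ccr2, which passed the filter through WT alone, 8 of 13 fell, against 27.2% over all tested genes, and 5 did not pass. All 14 summed to 98.4 to 124 CPM in SMA libraries and 148 to 194 CPM in WT libraries, and without Mrc1 the sums were 85.9 to 106 CPM in SMA libraries and 102 to 146 CPM in WT libraries, which overlapped. Lymphocyte markers were scarce, with 12 T and natural killer cell genes summing to 0.922 to 3.26 CPM in SMA libraries and 0.572 to 3.90 CPM in WT libraries. Their part in the results was not tested, and in bulk tissue fewer cells of a type and less RNA per cell cannot be told apart.

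**Figure D1:**
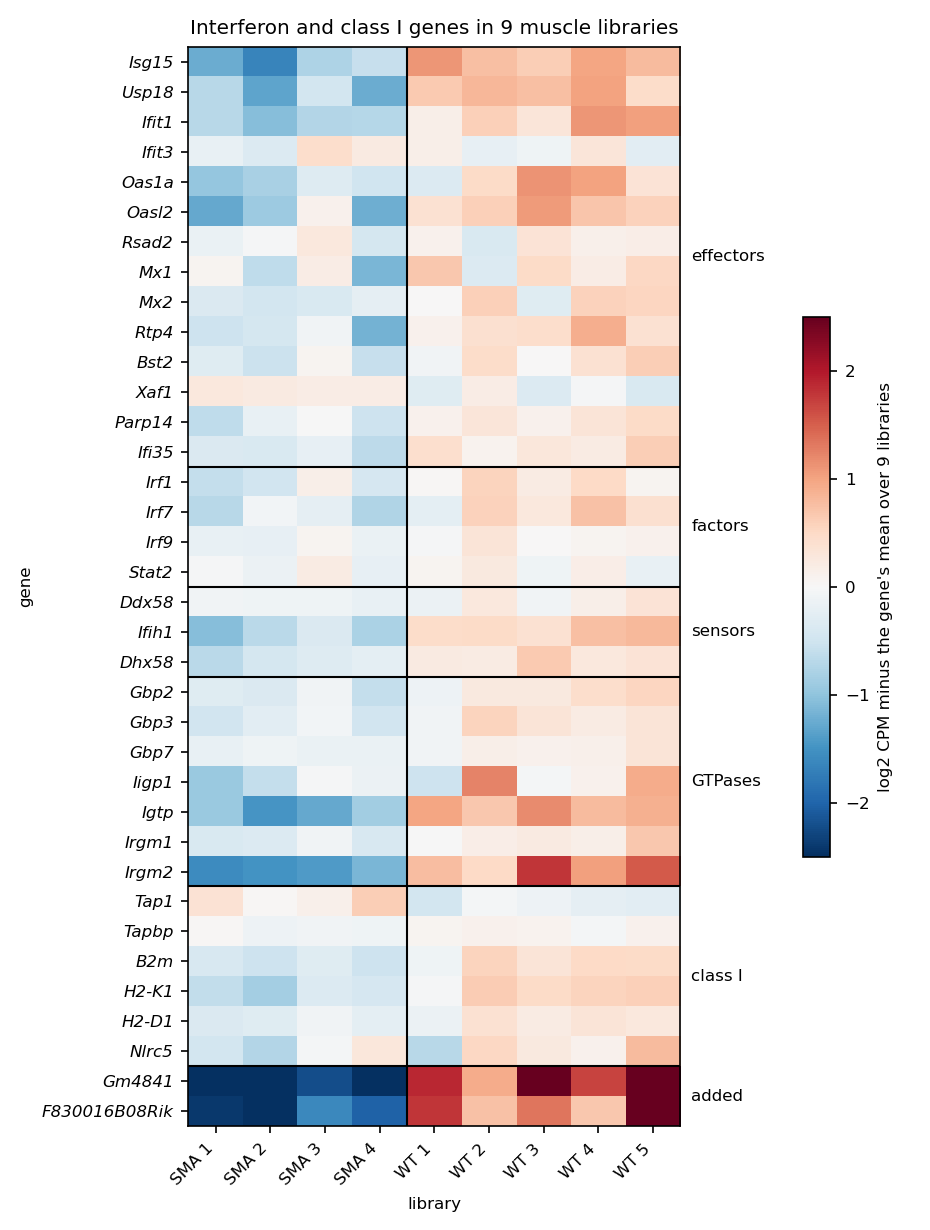
Heat map of log2 CPM (prior count 2) for the 36 genes, each centred on its mean over the 9 libraries, with rows grouped by arm and the 4 SMA libraries left of the 5 WT libraries; colours are limited to 2.5 log2 units either way. SMA columns are mostly below the gene mean, Xaf1 and Tap1 run the other way, and SMA 3 is nearest to WT among the SMA columns.

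Among the effectors, Usp18, which removes ISG15 from its targets and dampens type I receptor signalling, had 0.515, 0.320, 0.615 and 0.337 CPM in SMA libraries, against 1.36, 1.58, 1.49, 1.78 and 1.20 CPM in WT libraries. No SMA library reached the lowest WT library, and the log2 fold change was -1.73 ± 0.26 (SE; edgeR adjusted p = 1.44e-04). Isg15 itself, a ubiquitin-like protein joined to other proteins during infection, had 0.229, 0.160, 0.335 and 0.393 CPM in SMA libraries, against 1.36, 1.06, 0.953, 1.26 and 1.10 CPM in WT libraries. Its fitted log2 fold change of -2.02 ± 0.28 is a description, since the filter let it in through WT alone, and its level in SMA muscle rested on 6 to 14 counts a library.

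Oasl2, a 2′-5′ oligoadenylate synthetase-like protein, had 0.372, 0.506, 1.06 and 0.393 CPM in SMA libraries, against 1.28, 1.52, 2.10, 1.61 and 1.49 CPM in WT libraries. SMA 3 was the highest of its group yet still below WT, and the log2 fold change was -1.45 ± 0.32 (edgeR adjusted p = 0.00230). Rtp4, a receptor transporter with antiviral activity, had 0.830, 0.879, 1.15 and 0.505 CPM in SMA libraries, against 1.28, 1.61, 1.64, 2.31 and 1.59 CPM in WT libraries, a log2 fold change of -1.0 ± 0.26 (edgeR adjusted p = 0.00609). Parp14, a mono-ADP-ribosyltransferase, fell by 0.58 ± 0.14 on the log2 scale (7.33 to 11.3 CPM in SMA, 12.2 to 15.8 CPM in WT, edgeR adjusted p = 0.00341). Ifi35, an interferon-induced leucine zipper protein, fell by 0.73 ± 0.18 (1.18 to 1.62 CPM in SMA, 2.00 to 2.91 CPM in WT, edgeR adjusted p = 0.00391); a listed antisense gene covers 16.8% of its exon length. The groups did not overlap in these 4 genes.

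Bst2, or tetherin, which holds budding virions at the cell surface, had 5.61, 4.77, 7.27 and 4.63 CPM in SMA libraries, against 6.55, 9.55, 6.97, 9.09 and 10.7 CPM in WT libraries. SMA 3 lay above WT 1 and WT 3, and the log2 fold change was -0.62 ± 0.18 (edgeR adjusted p = 0.00968; 0.0578 with sex as a term). Mx2, of the antiviral dynamin-like GTPases, is listed by the annotation as a polymorphic pseudogene. It had 0.426 to 0.505 CPM in SMA libraries and 0.457 to 0.936 CPM in WT libraries. Its log2 fold change of -0.72 ± 0.27 passed at an edgeR adjusted p of 0.0388 but did not without any 1 SMA library, WT 2, WT 4 or WT 5, where the adjusted p was 0.0604 to 0.0916.

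Some effectors did not share the fall. Ifit3, which helps IFIT1 bind viral RNA, had 0.916, 0.825, 1.45 and 1.24 CPM in SMA libraries, against 1.14, 0.903, 0.953, 1.29 and 0.851 CPM in WT libraries, and Rsad2, or viperin, had 1.43 to 2.35 CPM in SMA libraries and 1.48 to 2.48 CPM in WT libraries. Their log2 fold changes were 0.11 ± 0.24 and -0.15 ± 0.20, with edgeR adjusted p of 0.724 and 0.544, and the sign of Rsad2 turned under total-count scaling and that of Ifit3 without SMA 3. Xaf1, an interferon-inducible protein linked to apoptosis, rose. It had 9.53, 9.29, 8.97 and 9.04 CPM in SMA libraries, against 6.38, 9.03, 6.21, 7.79 and 6.06 CPM in WT libraries. Only SMA 3 lay below a WT library, WT 2, and the log2 fold change was 0.37 ± 0.12 (edgeR adjusted p = 0.0231); it missed the threshold without SMA 1, SMA 2, WT 1 or WT 3.

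The 3 effectors under the filter were close to the limit of detection, where 3 counts correspond to 0.0799 to 0.0859 CPM in SMA libraries and 0.0968 to 0.132 CPM in WT libraries. Ifit1, an RNA-binding antiviral protein, had 0.115, 0.0799, 0.112 and 0.112 CPM in SMA libraries, against 0.220, 0.355, 0.267, 0.524 and 0.496 CPM in WT libraries, with no overlap. Oas1a, which makes the 2′-5′ oligoadenylates that activate RNase L, had 0.0859, 0.107, 0.168 and 0.140 CPM in SMA libraries, against 0.132, 0.323, 0.534, 0.489 and 0.284 CPM in WT libraries, and overlapped only through WT 1. Mx1, the nuclear relative of Mx2 that is disrupted in many laboratory strains, had 0.0561 to 0.224 CPM in SMA libraries and 0.129 to 0.308 CPM in WT libraries. With no filter, Ifit1 and Oas1a passed as lower (edgeR adjusted p = 0.00427 and 0.0231), and Mx1 did not (0.296).

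**Figure D2:**
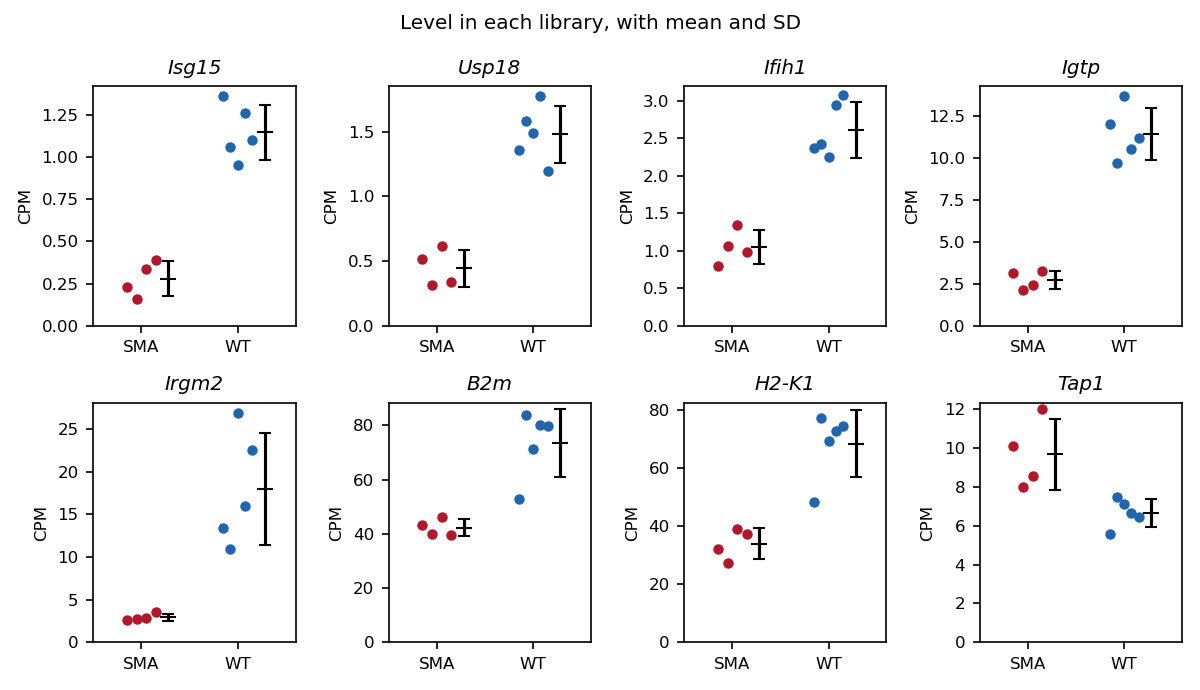
CPM of 8 genes on linear axes from 0, 1 point per library, SMA (red) left of WT (blue) in each panel, with a bar for the group mean and SD. In 7 panels every SMA point lies below every WT point, and in Tap1 every SMA point (7.96 to 12.0 CPM) lies above the WT points (5.58 to 7.48 CPM). The 8 genes were picked by hand and do not represent the set, and Isg15 is described only. Of the 30 tested genes 13 were lower with no overlap. Over all tested genes 21.7% were lower and 22.6% higher with no overlap.

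Of the 4 transcription factors, 2 fell, against 27.2% of all tested genes. Irf1, an interferon gamma target that in turn drives class I genes, had 10.6, 11.4, 17.6 and 12.0 CPM in SMA libraries, against 16.4, 23.7, 18.4, 22.5 and 16.8 CPM in WT libraries. The other SMA libraries lay below every WT library and SMA 3 lay above WT 1 and WT 5, and the log2 fold change was -0.60 ± 0.16 (edgeR adjusted p = 0.00801). Irf7, which amplifies type I interferon production, had 0.945, 1.49, 1.31 and 0.898 CPM in SMA libraries, against 1.28, 2.32, 1.87, 2.62 and 2.06 CPM in WT libraries. WT 1 fell within the SMA range, and the log2 fold change was -0.81 ± 0.24 (edgeR adjusted p = 0.0142; 0.0888 with sex as a term). Irf9 and Stat2, which carry the type I signal to the response element, had 8.84 to 10.6 and 9.26 to 12.4 CPM in SMA libraries and 9.94 to 12.7 and 9.43 to 12.7 CPM in WT libraries. Their log2 fold changes of -0.23 ± 0.10 and -0.08 ± 0.12 did not pass (edgeR adjusted p = 0.0732 and 0.614), and both turned positive under total-count scaling.

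Among the sensors, Ifih1 (MDA5), which binds long double-stranded RNA, had 0.802, 1.07, 1.34 and 0.983 CPM in SMA libraries, against 2.37, 2.42, 2.25, 2.94 and 3.08 CPM in WT libraries. The groups were well apart, at a log2 fold change of -1.31 ± 0.20 (edgeR adjusted p = 1.54e-04). Dhx58 (LGP2), a regulator of the other sensors, had 0.487, 0.586, 0.643 and 0.674 CPM in SMA libraries, against 0.923, 0.936, 1.30, 0.979 and 1.03 CPM in WT libraries. All SMA libraries were lower, and the log2 fold change was -0.78 ± 0.21 (edgeR adjusted p = 0.00833). Ddx58 (RIG-I), which binds short RNA with a triphosphate end, had 7.44 to 7.93 CPM in SMA libraries and 7.56 to 10.7 CPM in WT libraries. Its log2 fold change of -0.24 ± 0.11 did not pass (edgeR adjusted p = 0.0951). Per kilobase of exon, Ddx58 stood at 1.10 CPM in SMA and 1.30 CPM in WT, above Ifih1 at 0.128 CPM in SMA and 0.320 CPM in WT.

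In the GTPase arm all 7 genes fell, against 27.2% of all tested genes. Under total-count scaling only Igtp and Irgm2 still passed as lower, against 13.6% of all tested genes. These counts hold for the genes listed in the arm, whose guanylate-binding genes are Gbp2, Gbp3 and Gbp7 alone. Of 8 other GTPases not tested through 1 group alone, 4 fell and 2 rose (Gbp6 and Gbp10), as given below. Immunity-related GTPases gather on membranes of vacuoles that hold parasites or bacteria, and guanylate-binding proteins help to break such vacuoles open. Igtp (Irgm3), on chromosome 11, had 3.12, 2.13, 2.46 and 3.26 CPM in SMA libraries, against 12.0, 9.68, 13.7, 10.5 and 11.2 CPM in WT libraries. Irgm2, its neighbour, had 2.58, 2.74, 2.91 and 3.51 CPM in SMA libraries, against 13.4, 11.0, 26.9, 16.0 and 22.5 CPM in WT libraries. No SMA library came near the WT range in either gene. The log2 fold changes were -2.06 ± 0.15 (edgeR adjusted p = 7.98e-07) for Igtp and -2.61 ± 0.25 (edgeR adjusted p = 6.03e-06) for Irgm2. The annotation gives these genes 162 shared exon bases on the same strand, 8.0% of the exon length of Igtp and 4.4% of that of Irgm2, so reads there could not be told apart.

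Irgm1, a regulatory member that keeps effector GTPases off the cell's own membranes, changed less, with 7.84, 8.09, 9.56 and 7.75 CPM in SMA libraries, against 10.1, 11.4, 12.0, 11.3 and 16.3 CPM in WT libraries. The groups did not overlap, and the log2 fold change was -0.56 ± 0.14 (edgeR adjusted p = 0.00434). Iigp1 (Irga6), an effector member, had 1.17, 1.49, 2.24 and 2.05 CPM in SMA libraries, against 1.54, 5.45, 2.17, 2.45 and 4.39 CPM in WT libraries. WT 2 and WT 5 stood above the other libraries, and the log2 fold change of -0.89 ± 0.35 passed narrowly (edgeR adjusted p = 0.0479). It did not pass without SMA 1, SMA 2, SMA 4, WT 2 or WT 5.

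Gbp2, a guanylate-binding protein, had 5.15, 4.95, 6.01 and 4.24 CPM in SMA libraries, against 5.85, 7.55, 7.62, 8.74 and 9.32 CPM in WT libraries, and fell by 0.62 ± 0.15 on the log2 scale (edgeR adjusted p = 0.00363). Only SMA 3 and WT 1 crossed. Gbp3 had 3.54 to 4.70 CPM in SMA libraries and 4.62 to 7.26 CPM in WT libraries, a fall of 0.59 ± 0.15 (edgeR adjusted p = 0.00489). Gbp7 had 8.7 to 9.24 CPM in SMA libraries and 9.28 to 12.5 CPM in WT libraries, a fall of 0.29 ± 0.09 (edgeR adjusted p = 0.0217) that was lost without SMA 1, with sex as a term (0.101) and under total-count scaling (log2 fold change -0.05). Guanylate-binding and immunity-related GTPases are families of close copies, so counts may be split between members.

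**Figure D3:**
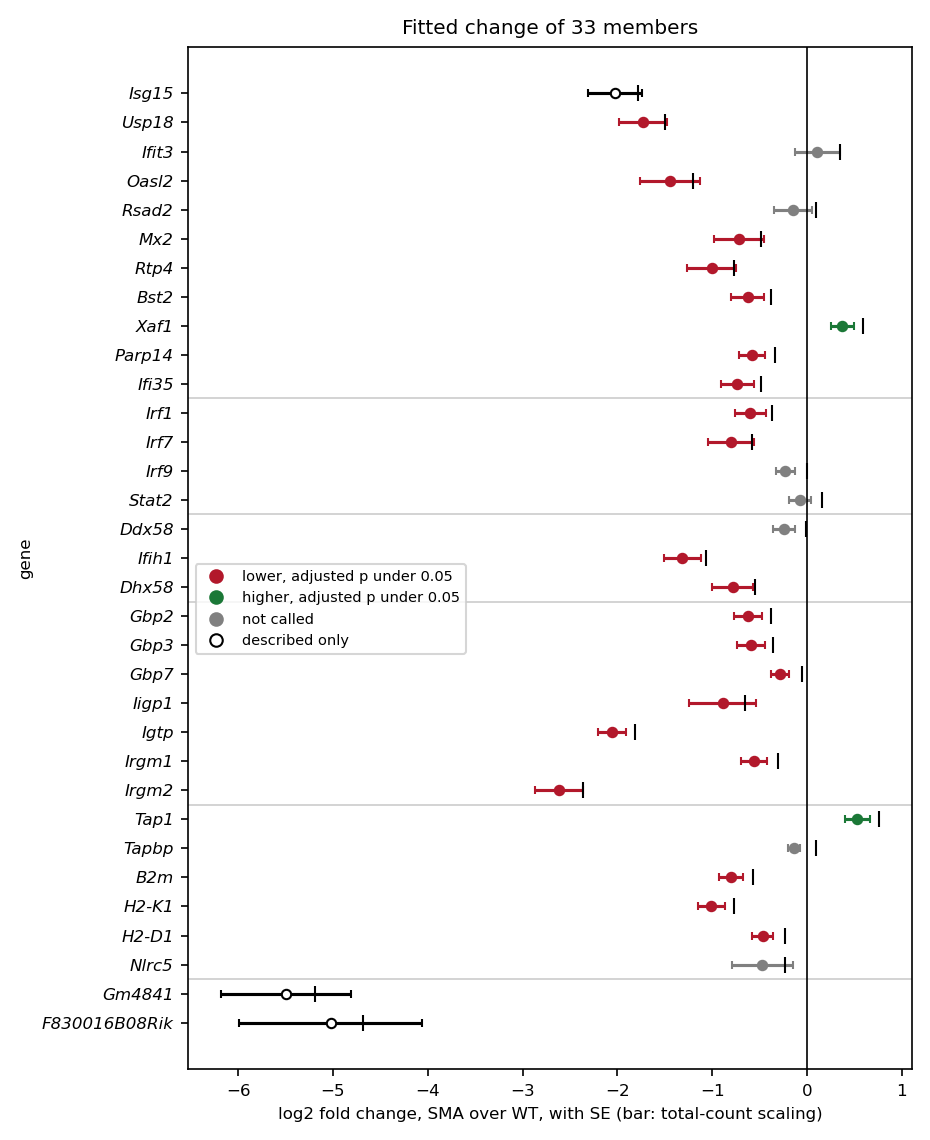
Log2 fold change of SMA over WT with its SE for the 33 genes past the filter, by arm, coloured by the call, with a short vertical bar at the value under total-count scaling and open points for Isg15, Gm4841 and F830016B08Rik, which are described only. Tested genes run from -2.61 for Irgm2 to 0.53 for Tap1, and total-count scaling moves every point to the right.

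In class I presentation B2m, H2-K1 and H2-D1 fell, Tap1 rose, and Tapbp and Nlrc5 did not pass. B2m, the light chain of every class I molecule, had 43.1, 39.9, 46.3 and 39.7 CPM in SMA libraries, against 52.9, 83.9, 71.3, 80.2 and 79.8 CPM in WT libraries. H2-K1, a classical heavy chain, had 32.2, 27.3, 39.0 and 37.2 CPM in SMA libraries, against 48.4, 77.1, 69.2, 72.5 and 74.4 CPM in WT libraries. Both were apart between the groups, with WT 1 the lowest of its group. The log2 fold changes were -0.80 ± 0.12 (edgeR adjusted p = 1.93e-04) for B2m and -1.01 ± 0.14 (edgeR adjusted p = 1.02e-04) for H2-K1.

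H2-D1, another classical heavy chain, had 111, 115, 134 and 120 CPM in SMA libraries, against 129, 186, 164, 177 and 171 CPM in WT libraries. SMA 3 exceeded WT 1, and the log2 fold change was -0.47 ± 0.11 (edgeR adjusted p = 0.00340). These were the most abundant genes of the set per kilobase of exon: B2m at 49.2 CPM in SMA and 85.6 CPM in WT, H2-D1 at 46.5 CPM in SMA and 64.1 CPM in WT, and H2-K1 at 11.6 CPM in SMA and 23.3 CPM in WT. FVB/N mice carry another class I haplotype than the C57BL/6J reference, so the counted share of their reads may differ between heavy chain genes.

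Tap1, a subunit of the transporter that moves peptides into the endoplasmic reticulum, had 10.1, 7.96, 8.55 and 12.0 CPM in SMA libraries, against 5.58, 7.48, 7.09, 6.64 and 6.45 CPM in WT libraries. Every SMA library was higher, and the log2 fold change was 0.53 ± 0.13 (edgeR adjusted p = 0.00485), although it missed the threshold with sex as a term (0.0601). Tap2, the other subunit, named after its values were seen, had 12.2 to 14.7 CPM in SMA libraries and 12.9 to 15.2 CPM in WT libraries and did not pass (log2 fold change 0.01 ± 0.09, edgeR adjusted p = 0.916). Psmb9 overlaps 3.9% of the exon length of Tap1 on the opposite strand. Tapbp (tapasin), which bridges the transporter and class I, had 28.5 to 32.0 CPM in SMA libraries and 30.4 to 33.6 CPM in WT libraries and did not pass (log2 fold change -0.14 ± 0.07, edgeR adjusted p = 0.102). Nlrc5, the main transactivator of class I genes, had 0.716, 0.586, 0.978 and 1.24 CPM in SMA libraries, against 0.572, 1.45, 1.18, 1.08 and 1.77 CPM in WT libraries. Its groups overlapped widely (log2 fold change -0.47 ± 0.32, edgeR adjusted p = 0.234).

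Gm4841 and F830016B08Rik, which RefSeq also names Ifgga3 and Ifgga4 and places on chromosome 18 with Iigp1 (Ifgga1), were the genes added for their pattern. Gm4841 had 0.286, 0.240, 0.363 and 0.112 CPM in SMA libraries, against 7.12, 3.65, 12.1, 6.19 and 28.1 CPM in WT libraries, a fitted log2 fold change of -5.49 ± 0.69. F830016B08Rik had 0.200, 0.133, 0.391 and 0.281 CPM in SMA libraries, against 4.66, 2.23, 3.39, 2.13 and 28.9 CPM in WT libraries, a fitted log2 fold change of -5.02 ± 0.97. WT 5 was the highest library in both. Without WT 5 the fitted log2 fold change was -4.83 for Gm4841 and -3.60 for F830016B08Rik. Iigp1, their neighbour, differed far less, as given above.

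Libraries differed within the groups along the whole set. SMA 3 was the highest SMA library in 23 of the 36 genes (63.9%), against 34.4% of all tested genes, and WT 1 was the lowest WT library in 20 of the 36 (55.6%), against 17.9%. Averaged over the 34 genes not chosen for pattern, the deviation from the gene mean in log2 CPM was -0.49, -0.52, -0.18 and -0.46 in SMA libraries 1 to 4, against 0.09, 0.37, 0.33, 0.42 and 0.44 in WT libraries 1 to 5. Of the 30 genes followed above, 21 fell without SMA 3 and 22 without WT 1.

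Other genes of the pathway were counted over whole lists, as context. These lists too were chosen with earlier results of these data known. Shares below are to be read against 27.2% lower and 27.7% higher over all tested genes, or 13.6% and 40.2% under total-count scaling. Of 44 tested other interferon-stimulated genes, 20 fell, 6 rose and 18 did not pass, with a median log2 fold change of -0.27. Without the 3 that passed the filter through WT alone (Oas2, Slfn9 and Epsti1), 17 of 41 fell (41.5%) and 6 rose, and under total-count scaling 13 of the 44 fell and 10 rose. Parp10, an ADP-ribosyltransferase, had 9.85 to 10.5 CPM in SMA libraries and 18.3 to 21.8 CPM in WT libraries, a log2 fold change of -1.01 ± 0.08 (edgeR adjusted p = 1.13e-06). Slfn9, a Schlafen family member given with no test, had 0.143 to 0.639 CPM in SMA libraries and 2.52 to 3.91 CPM in WT libraries. Trafd1, a feedback regulator of innate signalling, and Trim25, a ubiquitin ligase of the RIG-I pathway, rose by 0.71 ± 0.11 and 0.49 ± 0.09 on the log2 scale (edgeR adjusted p = 2.30e-04 and 5.85e-04).

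Of 28 ligand, receptor and signalling genes, 8 ligands (Ifnb1, Ifne, Ifnk, Ifna1, Ifna2, Ifna4, Ifnl2 and Ifnl3) had 0 counts in all 9 libraries, which allows up to the 3-count levels given above. Ifng, the type II ligand, had 1 count over the 4 SMA libraries and 3 over the 5 WT libraries. Of the 18 tested, 6 rose (33.3%), 5 fell (27.8%) and 7 did not pass, with a median of 0.03, shares near those over all genes. Under total-count scaling 10 rose. Il10rb, shared by the interleukin-10 and interferon lambda receptors, had 24 to 24.9 CPM in SMA libraries and 11.4 to 15 CPM in WT libraries, a log2 fold change of 0.97 ± 0.09 (edgeR adjusted p = 5.09e-06), and Ifnar2, a type I receptor chain, rose by 0.50 ± 0.09 (edgeR adjusted p = 4.45e-04). Ifngr2, the interferon gamma receptor chain, had 37.5 to 48.0 CPM in SMA libraries and 64.9 to 84.2 CPM in WT libraries, a log2 fold change of -0.74 ± 0.10 (edgeR adjusted p = 6.71e-05), and the kinase Jak1 fell by 0.63 ± 0.12 (edgeR adjusted p = 7.36e-04).

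Of 15 tested sensing and adaptor genes, 6 fell (40%), 3 rose (20%) and 6 did not pass, with a median of -0.07, but under total-count scaling 3 fell and 7 rose. Trex1, a DNA exonuclease, had 0 counts in every library. The kinases Tbk1 and Ikbke rose by 0.38 ± 0.08 and 0.54 ± 0.14 on the log2 scale (edgeR adjusted p = 0.00176 and 0.00574). Rnaseh2c, a subunit of RNase H2, and Tmem173 (STING), the adaptor of cytosolic DNA sensing, fell by 0.76 ± 0.11 and 0.71 ± 0.12 (edgeR adjusted p = 1.53e-04 and 3.47e-04).

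Other interferon-inducible GTPases included genes that rose. Of 13 tested, 8 fell, 3 rose and 2 did not pass, with a median of -0.99, and Gm4070 had 0 counts throughout. Without the 4 that passed the filter through WT alone and Gbp11, which passed through SMA alone, 4 of 8 fell and 2 rose, with a median of -0.22. Gbp10 had 67.3, 72.4, 38.0 and 48.2 CPM in SMA libraries, against 12.4, 12.9, 15.1, 19.0 and 29.0 CPM in WT libraries, a log2 fold change of 1.68 ± 0.25 (edgeR adjusted p = 1.70e-04). Gbp6 had 26.2, 26.3, 18.5 and 18.8 CPM in SMA libraries, against 5.67, 8.03, 8.04, 9.02 and 14.0 CPM in WT libraries, a log2 fold change of 1.32 ± 0.21 (edgeR adjusted p = 2.69e-04). Every SMA library was above every WT library in both. Gvin1, a giant GTPase, had 3.35, 5.01, 6.88 and 4.15 CPM in SMA libraries, against 12.0, 22.3, 13.5, 18.6 and 40.2 CPM in WT libraries, a log2 fold change of -2.14 ± 0.34 (edgeR adjusted p = 2.62e-04). 9930111J21Rik1, given with no test since it passed through WT alone, had 0.0533 to 0.112 CPM in SMA libraries, or 2 to 4 counts, and 0.452 to 0.616 CPM in WT libraries.

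Read by position, a grouping made after the values were seen, tested guanylate-binding genes fell on chromosome 3, whereas none fell on chromosome 5. Of 5 genes on chromosome 3, between bases 142493978 and 142638008, 4 were tested. All 4 fell (Gbp2, Gbp3, Gbp5 and Gbp7), against 27.2% of all tested genes. Of 6 genes on chromosome 5, between bases 105014150 and 105346472, 5 were tested. Gbp6 and Gbp10 rose and Gbp4 and Gbp9 did not pass, and Gbp11, tested through SMA alone, averaged 0.668 CPM in SMA and 0.253 CPM in WT. The chromosome 3 genes summed to 19.3 ± 1.29 CPM in SMA muscle and 27.4 ± 3.20 CPM in WT muscle, and the chromosome 5 genes to 114 ± 20.8 CPM in SMA muscle and 63.3 ± 12.4 CPM in WT muscle (SD, n = 4 and 5). Within the family the chromosome 3 share was 12.8% to 18.6% in SMA libraries and 27.5% to 33.5% in WT libraries, with no overlap. Such a share needs no scaling between libraries, but the grouping came from these values, so the gap is a description only. On chromosome 5, Gbp10 averaged 56.5 CPM in SMA and 17.7 CPM in WT, and Gbp6 averaged 22.5 CPM in SMA and 8.95 CPM in WT.

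**Figure D4:**
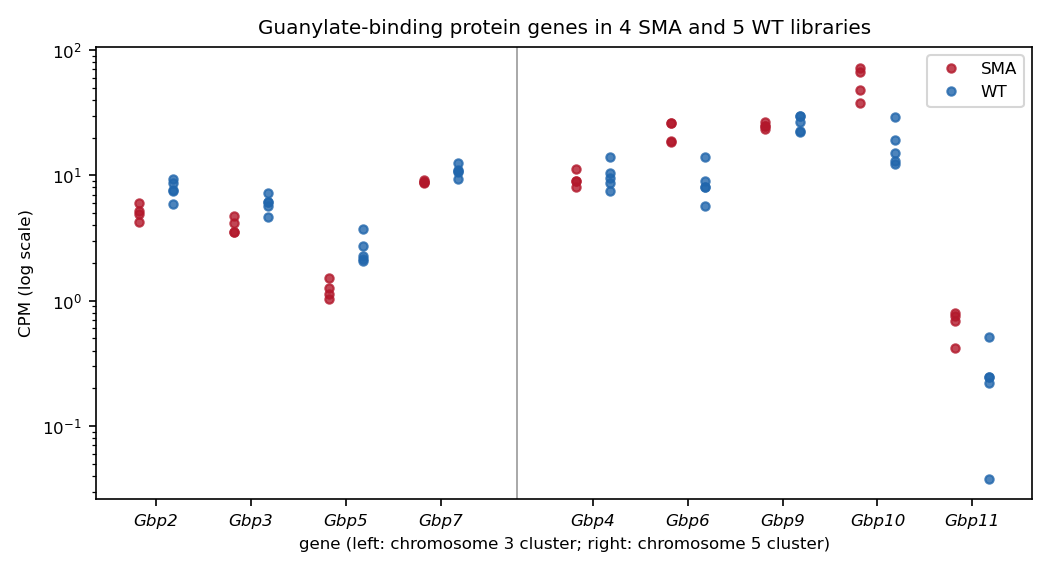
CPM of 9 guanylate-binding genes on a log axis, 1 point per library, SMA (red) left of WT (blue), with chromosome 3 genes in the left block and chromosome 5 genes in the right block. Left-block genes are lower in SMA, although the groups overlap in Gbp2 and Gbp3. Gbp6 (18.5 to 26.3 CPM in SMA, 5.67 to 14.0 CPM in WT) and Gbp10 are higher with no overlap. Gbp11, tested through SMA alone, is higher on average but overlaps, as do Gbp4 and Gbp9.

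Of 23 other tested class I, loading and immunoproteasome genes, 14 fell (60.9%) and 9 did not pass, with a median of -0.51, and under total-count scaling 6 fell and 2 rose. Erap1, which trims peptides in the endoplasmic reticulum, had 6.77 to 8.33 CPM in SMA libraries and 13.3 to 16.5 CPM in WT libraries, a log2 fold change of -0.99 ± 0.10 (edgeR adjusted p = 6.06e-06). Calr (calreticulin), a chaperone of class I loading and of glycoproteins in general, had 135 to 143 CPM in SMA libraries and 180 to 209 CPM in WT libraries, a log2 fold change of -0.51 ± 0.07 (edgeR adjusted p = 1.32e-04).

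Class II presentation is proper to macrophages, dendritic cells and B cells. Of 10 tested class II genes 4 fell, 1 rose and 5 did not pass, with a median of -0.53, and under total-count scaling 2 fell. Without H2-Eb1 and H2-DMb1, which passed the filter through WT alone, 4 of 8 fell. Ciita, the class II transactivator, had 0.533 to 1.01 CPM in SMA libraries and 1.56 to 1.89 CPM in WT libraries, and Cd74, the invariant chain, had 4.85 to 5.95 CPM in SMA libraries and 6.84 to 10.8 CPM in WT libraries. Their log2 fold changes were -1.27 ± 0.23 and -0.70 ± 0.13 (edgeR adjusted p = 6.37e-04 and 7.66e-04). Lgmn, a lysosomal protease of wide expression, rose by 0.60 ± 0.13 (edgeR adjusted p = 0.00254).

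Of the other cell types, B cell and plasma cell markers summed to 0.916 to 1.82 CPM in SMA libraries and 1.74 to 4.08 CPM in WT libraries, and dendritic cell markers to 9.14 to 10.8 CPM in SMA and 9.34 to 10.5 CPM in WT. Neutrophil markers summed to 2.69 ± 0.130 CPM in SMA libraries and 2.73 ± 1.38 CPM in WT libraries (SD), and endothelial markers to 706 to 907 CPM in SMA and 761 to 944 CPM in WT. Fibroblast markers summed to 2084 to 2998 CPM in SMA libraries and 3314 to 5835 CPM in WT libraries, below WT throughout. This sum was mostly collagen, with Col1a1 at a mean of 486 CPM in SMA and 1411 CPM in WT, and Col3a1 at 1568 and 2450 CPM. Of the 9 fibroblast genes 6 fell, 1 rose and 2 did not pass, so the sum does not stand for every marker. Schwann cell markers summed to 735 to 1708 CPM in SMA and 280 to 662 CPM in WT, above WT throughout. Mrc1, a marker of resident macrophages, fell by 1.72 ± 0.10 on the log2 scale (edgeR adjusted p = 2.37e-07), and Cd68 did not pass (edgeR adjusted p = 0.232).

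**Figure D5:**
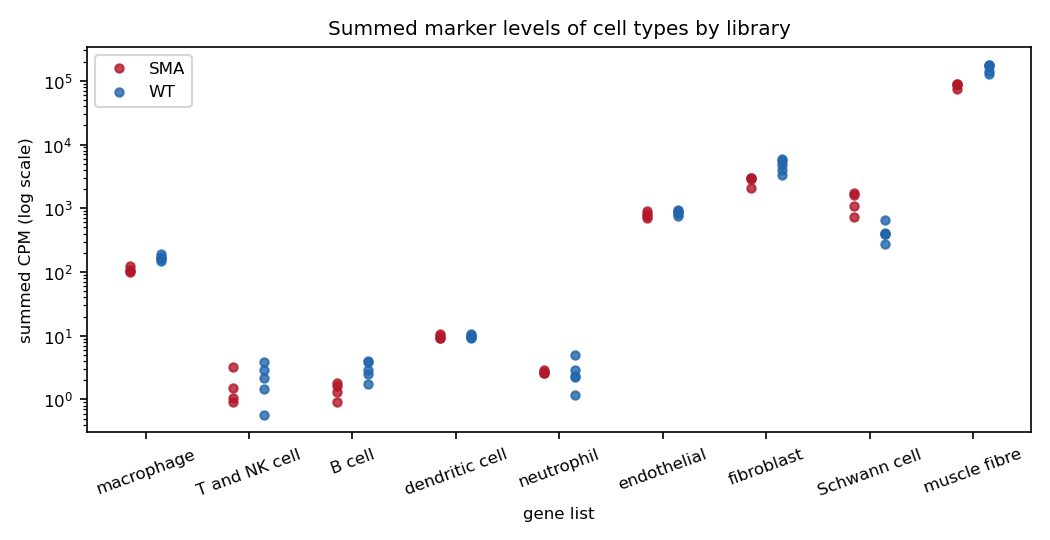
Summed CPM of the marker genes of 9 cell types on a log axis, 1 point per library, SMA (red) left of WT (blue). Macrophage, fibroblast and muscle fibre sums are lower in every SMA library, Schwann cell sums are higher in every SMA library, and T and NK cell, B cell, dendritic, neutrophil and endothelial sums overlap. Abundant genes weigh most in a sum, such as Col1a1 and Col3a1 in that of fibroblasts.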

How the data were processed

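Gene levels were measured in 9 libraries. Per the labels' protocols, 200 ng of total RNA entered a stranded mRNA preparation and was read as paired 75-base reads. The authors deposited raw counts as whole numbers for each gene. Their other deposited table gives a signal, found here to be the counts over a size factor of each library (0.734 to 1.23), and it was used only for that check. Per the submitters' processing notes, HTSeq 0.9.1, DESeq2 1.16.1 and mm10 were used, with no role given. For the aligner, annotation and strand setting, the sources used here give nothing.

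Groups and replicate numbers came from the labels. In R 4.3.3, genes were filtered with filterByExpr of edgeR 4.0.16, which kept 15873 genes (a gene passed through 1 group alone where 4 or more libraries of that group and fewer than 4 of the other were above 0.325 CPM, and such genes are described with no test), TMM scaled the libraries, and group was tested two-sided by a quasi-likelihood fit over the 9 libraries, with Benjamini-Hochberg adjustment and a threshold of 0.05. An SE is the log2 fold change divided by the square root of the F statistic. Simulated counts, with the same spread for every gene and few changed genes, served only to check the code. They do not show how the test behaves where as many genes change as here. Levels are CPM, and levels per kilobase divide by the exon length of the annotation in GRCm38. Alternatives were DESeq2 1.42.0 size factors and Wald test, limma 3.58.1 voom, total-count scaling, other low-count filters, each library left out, WT 5 and SMA 3 left out together, sex as a term and a replicate block.

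The members and lists were chosen with earlier results of these data known. Named are all 36 members, and of each pathway list the tested genes with the lowest adjusted p, at most 2 in each direction. Other genes, such as Gbp5, Gbp11, Tap2, Mrc1 and Cd68, were named after their values were seen. The labels do not say that replicate numbers pair libraries. Deviations of same-numbered libraries correlated at 0.118, -0.00555, -0.0482 and 0.0971. Differently numbered libraries spanned -0.318 to 0.174, so this check showed no pairing but cannot exclude it. No pair of libraries within a group agreed within sampling noise. No protein sequence was used.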

Additional observations from a re-analysis of the deposited data

Results flagged for a closer look

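In each of the 36 genes the libraries of each group were checked for a library far from the rest of its group, which gave 72 groups, of which 5 had such a library; chance gives about 1 in 20. F830016B08Rik was at 28.9 CPM in WT 5, while the other WT libraries had 2.13 to 4.66 CPM. H2-K1 was at 48.4 CPM in WT 1, below the 69.2 to 77.1 CPM of the other WT libraries. Irf9 was at 10.6 CPM in SMA 3, above the 8.84 to 8.98 CPM of the other SMA libraries. Ifit1 was at 0.0799 CPM in SMA 2, at the level of 3 counts, and at 0.112 to 0.115 CPM in the other SMA libraries. Dhx58 was at 1.30 CPM in WT 3, and at 0.923 to 1.03 CPM in the other WT libraries. Without the library concerned, the 4 tested or described genes kept their direction, and Irf9 passed as lower without SMA 3.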

How the results depend on the processing

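Scaling mattered most. With total counts in place of TMM, 10 of the 31 tested members (Isg15 included) fell, against 22, and 2164 of all genes fell, against 4319. Falls in the lists came to 13 other interferon-stimulated, 3 sensing, 6 other class I and 2 class II genes, and rises to 10 other interferon-stimulated, 10 ligand, receptor and signalling, 7 sensing and 2 other class I genes. Rsad2 (0.10), Irf9 (0.0051), Stat2 (0.15) and Tapbp (0.10) changed sign there. With a stricter low-count filter, which tests fewer genes, 5 other GTPases fell. With sex as a term 17 members fell and 1 rose, and Ifit3 was at -0.016. The replicate block, although no label says that the numbers pair libraries, left 19 members lower and 1 higher and put F830016B08Rik at -3.59. Leaving out each library in turn gave 18 to 22 lower and 1 to 2 higher among the 30 genes followed above, with 18 lower without SMA 1. With Isg15 it was 19 to 23 lower among the same 31. Without an SMA library Ifit1 and Oas1a pass the filter, through WT libraries alone. Counting them gave 20 to 24 lower among the 31 to 33 then tested, but their direction was set by the filter. Leaving out each library also gave 3 to 7 other interferon-stimulated genes higher (3 without SMA 2), -5.32 to -3.60 for F830016B08Rik (-3.60 without WT 5) and -0.051 to 0.23 for Ifit3 (-0.051 without SMA 3). Without WT 5 and SMA 3 together, Ifit3 was at -0.11. Beyond what each setting's construction shows, the cause was not tested. DESeq2's Wald test lost Mx2 alone, and limma-voom lost Mx2 and Iigp1. Usp18, Oasl2, Rtp4, Ifi35, Ifih1, Igtp, Irgm2, B2m and H2-K1 passed as lower under every alternative in which they were tested. Genes near 3 counts a library (Ifit1, Oas1a, Mx1) are limited by depth.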
